A study of Mus musculus with 6 samples.

Results

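The p53 arrest and stress targets described here are 10 genes that the transcription factor p53 is known to switch on in damaged cells, namely Cdkn1a, Mdm2, Ccng1, Gdf15, Phlda3, Eda2r, Sesn2, Btg2, Trp53inp1 and Zmat3. They were chosen by gene name among the 54532 genes of the deposited tables, and all 10 were found once and passed the filter on low counts, together with 15816 genes tested in all. RNA was sequenced from whole kidneys of 3 WT mice (mice 1, 2 and 3) and 3 Trpm2-/- mice (mice 1, 2 and 4), all of strain C57BL/6J, with an age of 6 to 8 weeks by the sample labels. Every mouse of both genotypes had been injected once with cisplatin at 18 mg/kg and was killed 72 h later, and the methods describe the treated mice as male. Trpm2-/- mice carry a whole-body deletion of exons of Trpm2, which encodes a calcium-permeable cation channel opened during oxidative stress, and still make a channel protein that lacks part of its membrane-spanning region. The methods give a commercial supplier for the WT mice and another university for the Trpm2-/- mice, so that colony of origin and genotype cannot be told apart. No untreated mouse was analysed here, and every value below is a level after cisplatin or a difference between genotypes after cisplatin.

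Cisplatin forms adducts on DNA and accumulates in kidney tubules, most of all in the proximal tubule. In a cell with damaged DNA, kinases such as ATM and ATR act on p53 and on its inhibitor MDM2, p53 accumulates, and it binds a DNA motif made of a pair of 10-base units (decamers) near its target genes. The products of these targets stop the cell cycle, repair DNA, limit growth and metabolism, start apoptosis or, as MDM2 does, switch p53 off again. In cisplatin-treated kidney, induction of p21, the product of Cdkn1a, is one of the best known of these responses and protects tubules. Some of the targets, Gdf15 and Sesn2 among them, are also switched on by ATF4, the transcription factor of the amino acid and endoplasmic reticulum stress response.

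To show what p53 could read near these genes, the 250 bases before each RefSeq start site (build GRCm38.p6) were searched for the p53 decamer, whose consensus reads the same on both strands. A full site was taken as decamers side by side, or with 1 base between them, that match at least 19 of the 20 consensus bases. Promoters were found for 8 of the 10 genes (10 promoters, as Cdkn1a and Gdf15 each have a pair of starts) and not for Trp53inp1 and Zmat3. The sequences of Cdkn1a and Ccng1 are shown because they hold a full site, that of Mdm2 because it holds a single decamer, and that of Eda2r because it is the gene with the largest fold change among the 10. Capitals mark the full site, or in Mdm2 the decamer. A further decamer upstream of the site in Cdkn1a is left in lower case.
Cdkn1a, chr17:29090729-29090978, plus strand: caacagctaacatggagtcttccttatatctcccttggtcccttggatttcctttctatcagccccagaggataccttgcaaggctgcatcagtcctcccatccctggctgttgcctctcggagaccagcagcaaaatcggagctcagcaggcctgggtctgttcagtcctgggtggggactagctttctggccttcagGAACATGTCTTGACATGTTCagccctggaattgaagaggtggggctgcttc
Ccng1, chr11:40755287-40755536, minus strand: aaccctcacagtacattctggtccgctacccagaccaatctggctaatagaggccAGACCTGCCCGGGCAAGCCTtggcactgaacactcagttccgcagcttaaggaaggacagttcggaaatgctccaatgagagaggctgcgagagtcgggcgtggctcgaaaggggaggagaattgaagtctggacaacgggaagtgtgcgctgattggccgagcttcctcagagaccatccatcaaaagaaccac
Mdm2, chr10:117710759-117711008, minus strand: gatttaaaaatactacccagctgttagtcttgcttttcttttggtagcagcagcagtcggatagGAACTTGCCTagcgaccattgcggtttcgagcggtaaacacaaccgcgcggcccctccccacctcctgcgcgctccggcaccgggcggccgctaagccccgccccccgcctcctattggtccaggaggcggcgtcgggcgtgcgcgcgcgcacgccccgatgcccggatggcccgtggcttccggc
Eda2r, chrX:97377210-97377459, minus strand: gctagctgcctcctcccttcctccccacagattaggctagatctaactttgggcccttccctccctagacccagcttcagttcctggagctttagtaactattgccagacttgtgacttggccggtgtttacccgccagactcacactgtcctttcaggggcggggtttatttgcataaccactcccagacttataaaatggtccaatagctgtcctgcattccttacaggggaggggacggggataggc

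In Cdkn1a the site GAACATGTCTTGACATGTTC lay 51 to 32 bases before the upstream of its pair of starts (chr17:29090928-29090947) and matched 19 of 20 consensus bases. The window before the other Cdkn1a start (chr17:29093519-29093768) held 0 decamers and 0 full sites, with a best match of 15 of 20. In Ccng1 the site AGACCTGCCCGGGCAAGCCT lay 195 to 176 bases before the start (chr11:40755462-40755481) and also matched 19 of 20. The single Mdm2 decamer GAACTTGCCT lay 186 to 177 bases before the start (chr10:117710935-117710944). The genes with a full site in this window, Cdkn1a (at its upstream start only) and Ccng1, did not pass the test between genotypes given below. Of the 2 genes that passed, Mdm2 held a single decamer and Eda2r held none. A full site was found in 46 of 32851 mouse promoters of the same length (0.14%) and a decamer in 2341 (7.13%), against 2 and 3 of the 10 promoters of these genes. The element TGATGNAA, which ATF4 binds and which was searched on both strands, was in 1134 promoters (3.45%) and in 0 of these 10, and in 9 of 26 promoters of a list of ATF4 stress genes. The 10 genes were chosen as known p53 targets, so their share of p53 sites beside all promoters was set in part by that choice. A match is only a description of the letters, and known p53 elements also lie outside such a window, as those in the first intron of Mdm2 do.

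The 6 libraries held between 14053307 and 17150089 gene counts, so that 3 counts corresponded to 0.175 to 0.213 CPM (counts scaled to the size of the library). Counts of Trpm2 itself were low, at 0.308, 0.321 and 1.66 CPM in WT mice and 0.612, 1.09 and 1.25 CPM in Trpm2-/- mice, and only the lowest values were near this limit. As the gene-level count includes the exons that the allele keeps, it is no check of the genotype labels. The share of counts on the mitochondrial genome was 4.43% to 4.72% in WT and 7.91% to 11.0% in Trpm2-/- kidneys, with the highest value in mouse 4. Of 12 markers of the proximal tubule, 11 (91.7%) were lower in Trpm2-/- mice, beside 7.28% of all genes tested. The 12 had a median log2 fold change of -1.32 and a summed level of 8146 to 10288 CPM in WT and 2860 to 4694 CPM in Trpm2-/- mice. In whole kidney, fewer cells of a type and less RNA per cell cannot be told apart. Of 12 genes of the injured tubule, 4 (33.3%) were higher, beside 4.74% of all genes tested, and 0 lower. All 12 had a positive log2 fold change (median 0.49), with summed levels of 17711 to 19624 and 19686 to 27838 CPM. The part of these shifts in the results below was not tested.

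Levels are given as CPM with TMM-scaled library sizes, and genotypes were compared with edgeR's quasi-likelihood test, with p-values adjusted by Benjamini-Hochberg over all 15816 genes. Of the 10 p53 targets, 2 rose in Trpm2-/- kidneys at an adjusted p under 0.05 (Eda2r and Mdm2), where 4.74% of all genes tested were higher. No member was lower (0 of 10), where 7.28% of all genes were, and 0 were lower with the DESeq2 Wald test. The count of 2 higher was 0 without WT mouse 2 or WT mouse 3, 1 without WT mouse 1 or Trpm2-/- mouse 2, and 1 with the replicate block. That block pairs mice by replicate number, so only mice 1 and 2 of each genotype inform its fold changes. At an unadjusted p under 0.05 the count was 5 of 10, all higher (Eda2r, Mdm2, Trp53inp1, Sesn2 and Zmat3), against 28.3% of all genes in either direction. The median log2 fold change was 0.39 for the 10 genes and 0.02 for all genes tested. A threshold of the kind given in the methods, an absolute log2 fold change above 1 with p under 0.05, was passed upwards by 3.5% of all genes and by 0 of the 10. The members therefore differed by less than 2-fold in the means of the genotypes, and 8 of them did not pass the test.

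**Figure D1:**
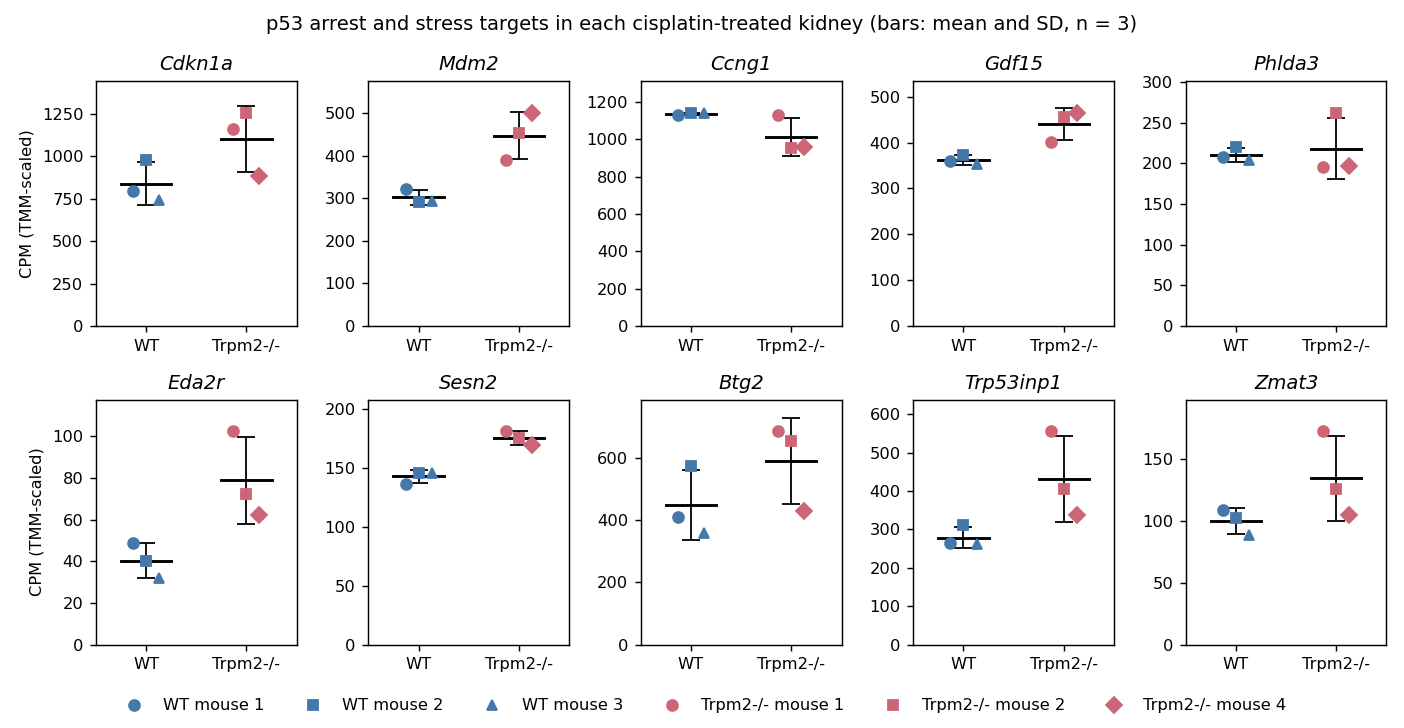
Level of each of the 10 p53 targets in each kidney, in CPM with TMM scaling and axes from 0, for WT (blue) and Trpm2-/- (red) mice, with the mean as a line and the SD as error bars (n = 3). The red points sit above all blue points for Mdm2, Gdf15, Eda2r, Sesn2 and Trp53inp1, and mouse 1 lies level with them for Ccng1 and the other red points below.

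The arrest group of Cdkn1a, Btg2 and Ccng1 held no gene that passed the test. Cdkn1a encodes p21, the inhibitor of cyclin-dependent kinases through which p53 holds cells before DNA replication. Its level was 795, 979 and 742 CPM in the WT mice and 1163, 1254 and 881 CPM in the Trpm2-/- mice. Trpm2-/- mice 1 and 2 were above all WT mice and mouse 4 was below the highest of them, so the genotypes overlapped. The mean was 839 ± 124 CPM in WT and 1099 ± 194 CPM in Trpm2-/- mice (SD, n = 3). This gave a log2 fold change of 0.39 with a 95% interval from -0.02 to 0.80 (SE 0.185, edgeR adjusted p = 0.201).

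Btg2 encodes an antiproliferative protein that recruits the enzymes removing poly(A) tails from mRNA. It behaved like Cdkn1a across the mice, with 411, 573 and 359 CPM in WT and 684, 652 and 430 CPM in Trpm2-/- kidneys. WT mouse 2 was again the highest WT mouse and Trpm2-/- mouse 4 again the lowest of its genotype, and the groups overlapped. The log2 fold change was 0.40 (SE 0.227, interval -0.11 to 0.90), and edgeR's adjusted p was 0.291. It was 0.61 without WT mouse 2 and 0.25 without WT mouse 3.

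Ccng1, which encodes cyclin G1, a partner of a phosphatase that acts on MDM2, did not follow the other genes. Its level was 1131, 1141 and 1139 CPM in WT mice, the narrowest spread of the 10 genes, and 1131, 952 and 957 CPM in Trpm2-/- mice. All Trpm2-/- values were below all WT values, as for 16.8% of all genes tested, but mouse 1 lay below the lowest WT mouse by less than 1 CPM, and in FPKM this mouse was at 283.6, above WT mouse 1 at 282.5 and WT mouse 3 at 282.8. The mean was 1137 ± 5.14 CPM in WT and 1013 ± 102 CPM in Trpm2-/- mice (SD, n = 3). With a log2 fold change of -0.17 (interval -0.49 to 0.16) and an adjusted p of 0.501 by edgeR's test, the difference was within the spread between Trpm2-/- mice, and the log2 fold change was -0.26 without Trpm2-/- mouse 1.

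In the feedback arm Mdm2 passed the test, though the interval of its fold change overlapped those of Cdkn1a and Btg2. Mdm2 encodes the ubiquitin ligase that marks p53 for degradation, and p53 in turn switches Mdm2 on. Its level was 321, 292 and 293 CPM in the WT mice against 389, 452 and 500 CPM in the Trpm2-/- mice. Every Trpm2-/- mouse exceeded every WT mouse, and mouse 4, the lowest of the 3 for Cdkn1a and Btg2, was here the highest. Mdm2 rose 1.48-fold, from 302 ± 16.6 to 447 ± 55.5 CPM (SD, n = 3), with a log2 fold change of 0.57 (SE 0.144, interval 0.24 to 0.89) and an adjusted p of 0.0335 by edgeR's quasi-likelihood test. This call was lost in 5 of the 6 fits that left out a mouse. The adjusted p was 0.0626, 0.149 and 0.164 without WT mouse 1, 2 or 3 in turn and 0.0549 and 0.0672 without Trpm2-/- mouse 2 or 4, with log2 fold changes between 0.49 and 0.61 in these fits. With the replicate number as a block, which pairs mice that share only a number, the log2 fold change was 0.46 and the adjusted p 0.238. In that fit WT mouse 3 and Trpm2-/- mouse 4 have no partner and add nothing to the fold change.

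Mdm4, the relative of Mdm2 that binds p53 and blocks its transactivation domain, was measured at 84.9, 81.3 and 84.4 CPM in WT and 122, 118 and 149 CPM in Trpm2-/- mice. It rose with a log2 fold change of 0.63 (SE 0.134, edgeR adjusted p = 0.0166), and as for Mdm2 mouse 4 had the highest level. Without WT mouse 2 or WT mouse 3 its adjusted p was 0.0903 and 0.0870, and with the replicate block 0.114. Trp53, the gene of p53 itself, was at 68.1, 58.3 and 64.8 CPM in WT and 85.5, 71.2 and 98.7 CPM in Trpm2-/- mice. Here too the genotypes did not overlap, although the difference (log2 fold change 0.42, SE 0.148) had an adjusted p of 0.0986 by edgeR's test. Without Trpm2-/- mouse 2 that p was 0.0410. p53 is regulated mostly by the stability of the protein, which these data do not measure.

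Of the genes that act on stress and metabolism, all 3 had higher levels in every Trpm2-/- mouse than in any WT mouse. Among all genes tested 16.7% had this separation, and none of the 3 passed the adjusted threshold. Gdf15 encodes a secreted member of the TGF-beta superfamily that suppresses appetite through a receptor in the brainstem. It was at 359, 373 and 353 CPM in WT and 401, 457 and 465 CPM in Trpm2-/- kidneys. The means of 362 ± 10.3 and 441 ± 34.8 CPM (SD, n = 3) gave a log2 fold change of 0.28 (interval -0.01 to 0.58, edgeR adjusted p = 0.195).

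Sesn2 encodes sestrin 2, an inhibitor of the growth kinase complex mTORC1. The 3 WT mice had 136, 146 and 146 CPM and the 3 Trpm2-/- mice 181, 175 and 170 CPM. This was the gene with the most even levels among Trpm2-/- mice (coefficient of variation 3.20%), and the gap between the genotypes was wider than the range of either. The log2 fold change was 0.30 (SE 0.118, interval 0.03 to 0.56), with an adjusted p of 0.133 in edgeR's quasi-likelihood test.

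Trp53inp1 encodes a stress protein that helps kinases to phosphorylate p53 and also takes part in autophagy. Its levels were 263, 310 and 261 CPM in WT and 555, 404 and 337 CPM in Trpm2-/- mice. Mouse 1 stood highest and mouse 4 closest to the WT mice, the reverse of their order for Mdm2. The log2 fold change was 0.64 (SE 0.192, interval 0.20 to 1.07) and the edgeR adjusted p 0.0606, just above the threshold. It passed in 4 of 17 alternative settings, with an adjusted p of 0.0396 after upper-quartile normalization, 0.00587 with no filter on low counts, 0.0135 with the DESeq2 Wald test and 0.0258 without Trpm2-/- mouse 4. Without Trpm2-/- mouse 1 the log2 fold change was 0.41. Counting Gdf15, Sesn2 and Trp53inp1 with Mdm2 and Eda2r, 5 of the 10 genes had no Trpm2-/- mouse as low as the highest WT mouse, as 16.7% of all genes tested had.

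The last group holds genes tied to cell death and RNA. Eda2r encodes a death-domain-free receptor of the TNF receptor superfamily for one form of ectodysplasin, and it had the largest fold change of the 10. The WT mice had 48.5, 40.2 and 32.0 CPM and the Trpm2-/- mice 102, 72.0 and 62.0 CPM. No value of one genotype reached into the other, though the Trpm2-/- mice spread widely. Eda2r rose 1.96-fold, from 40.2 ± 8.29 to 78.8 ± 21 CPM (SD, n = 3), with a log2 fold change of 0.97 (SE 0.213, interval 0.49 to 1.45) and an adjusted p of 0.0195 by edgeR's quasi-likelihood test. The call was kept in 14 of 17 alternative settings, with log2 fold changes between 0.73 and 1.13. These include the replicate block, which rests on mice 1 and 2 of each genotype. It was lost without WT mouse 2 (adjusted p = 0.0783) and without WT mouse 3 (0.0922).

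Zmat3 encodes a zinc finger protein that binds RNA and acts on splicing and mRNA stability. Its levels of 108, 103 and 88.6 CPM in WT and 172, 126 and 105 CPM in Trpm2-/- mice were in the same order of mice as those of Eda2r. Mouse 4 lay among the WT mice, so the groups overlapped. The log2 fold change was 0.43 (SE 0.186, interval 0.01 to 0.84), with an adjusted p of 0.165 in edgeR's test. Without Trpm2-/- mouse 1 the log2 fold change was 0.21.

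Phlda3 encodes a small protein with a PH domain that competes with the kinase AKT for membrane lipids. It was at 207, 220 and 204 CPM in WT and 195, 262 and 197 CPM in Trpm2-/- mice. Trpm2-/- mouse 2 was the highest of all 6 mice and the other two were the lowest of all 6. The log2 fold change of 0.05 (interval -0.28 to 0.39, edgeR adjusted p = 0.857) rested on that mouse, and without it the value was -0.10.

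**Figure D2:**
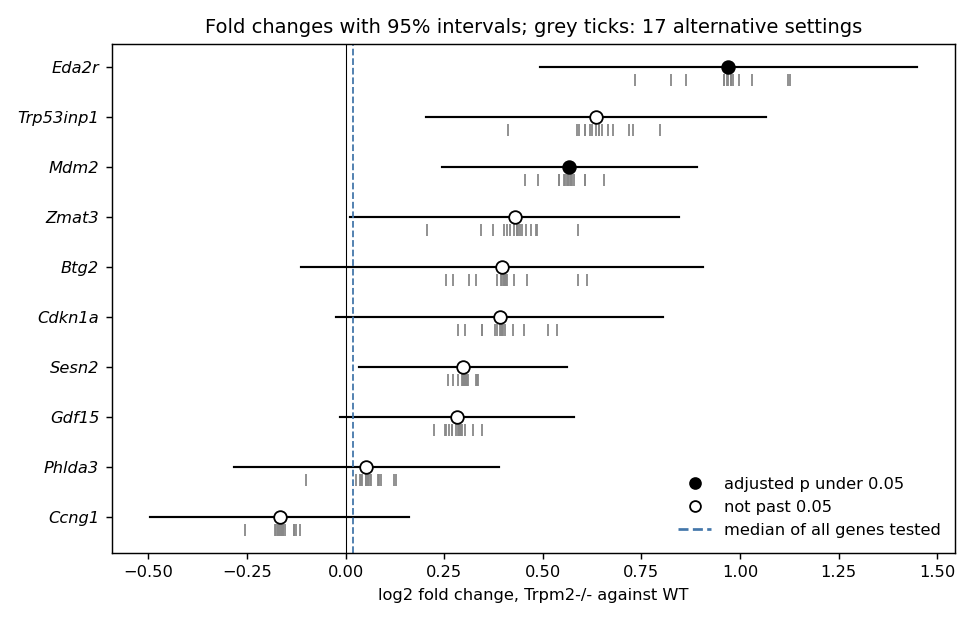
Log2 fold change of each gene in Trpm2-/- against WT kidneys from edgeR (circles, filled where the adjusted p was under 0.05) with 95% intervals as lines; grey ticks give the 17 alternative settings and the dashed line the median of all genes tested, 0.02. Eda2r and Mdm2 are filled, Ccng1 is the gene below 0, and the ticks cross 0 for Phlda3 alone.

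The order of the mice differed from gene to gene. Trpm2-/- mouse 1 had the highest Trpm2-/- level in 6 of the 10 genes (Ccng1, Eda2r, Sesn2, Btg2, Trp53inp1 and Zmat3) and the lowest in 3 (Mdm2, Gdf15 and Phlda3). Mouse 4, the mouse with the highest share of mitochondrial counts, was lowest in 6 (Cdkn1a, Eda2r, Sesn2, Btg2, Trp53inp1 and Zmat3) and highest in 2 (Mdm2 and Gdf15). Measured against the mean log2 CPM of the WT mice, the median difference over the 10 genes was 0.43 in mouse 1, 0.44 in mouse 2 and 0.17 in mouse 4, against -0.02, 0.04 and -0.07 in the 3 WT mice. For Trp53inp1 these differences were 1.00, 0.54 and 0.28 in Trpm2-/- mice 1, 2 and 4, and for Mdm2 they ran the other way at 0.37, 0.58 and 0.73. Thus no single Trpm2-/- mouse was the high one for all 10 genes.

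The spread among mice was wider in the Trpm2-/- group for 8 of the 10 genes, with Sesn2 and Btg2 as the exceptions. The coefficient of variation went from 0.452% in WT to 10.1% in Trpm2-/- mice for Ccng1, from 3.92% to 17.3% for Phlda3 and from 10.1% to 25.8% for Trp53inp1. A wider spread was not particular to these genes, since the median over all genes of at least 10 CPM in WT was 9.23% in WT and 14.9% in Trpm2-/- mice.

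**Figure D3:**
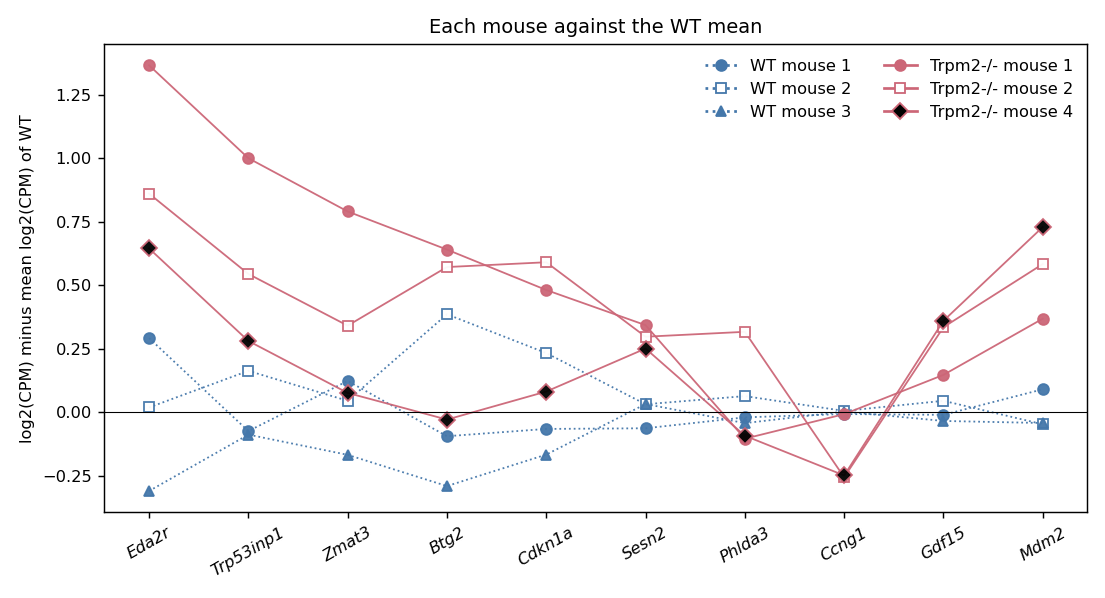
Log2 CPM of each mouse minus the mean log2 CPM of the 3 WT mice, for each of the 10 genes in an order that sets those highest in Trpm2-/- mouse 1 at the left; blue dotted lines are WT mice and red lines Trpm2-/- mice, and lines only join the points of a mouse. The red lines cross, with mouse 1 at 1.37 for Eda2r and 0.37 for Mdm2 and mouse 4 at 0.65 and 0.73.

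Levels of different genes can be set side by side only per transcript length, in FPKM (fragments per kilobase of transcript, scaled to library size). In WT kidneys Ccng1 was the most abundant of the 10 at 283 ± 1.02 FPKM, followed by Cdkn1a at 206 ± 30.8, Gdf15 at 171 ± 5.11, Btg2 at 143 ± 35.9 and Phlda3 at 118 ± 4.77 FPKM (SD, n = 3). Mdm2 was at 51.9 ± 2.98, Trp53inp1 at 37.6 ± 3.80 and Sesn2 at 35.9 ± 1.27 FPKM. Zmat3 at 7.65 ± 0.803 and Eda2r at 5.97 ± 1.25 FPKM were the lowest. Values of Gdf15 and Btg2, Btg2 and Phlda3, and Trp53inp1 and Sesn2 overlapped between mice, so these neighbours could not be ordered beyond their spread. The ranges of Zmat3 and Eda2r also overlapped. Within each WT mouse, though, Zmat3 was above Eda2r (8.32 and 7.23, 7.86 and 5.97, and 6.76 and 4.73 FPKM in mice 1, 2 and 3). In Trpm2-/- kidneys Cdkn1a, at 273 ± 46.6 FPKM, stood above Ccng1 at 254 ± 25.4 FPKM in mean, and their values overlapped. The ranges of Zmat3, at 10.4 ± 2.63, and Eda2r, at 11.8 ± 3.11 FPKM, also overlapped. Within each Trpm2-/- mouse, though, Eda2r was above Zmat3 (15.3 and 13.3, 10.7 and 9.67, and 9.35 and 8.15 FPKM in mice 1, 2 and 4). This change in their order was not tested. The gene with the largest fold change was therefore among the least abundant of the set.

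**Figure D4:**
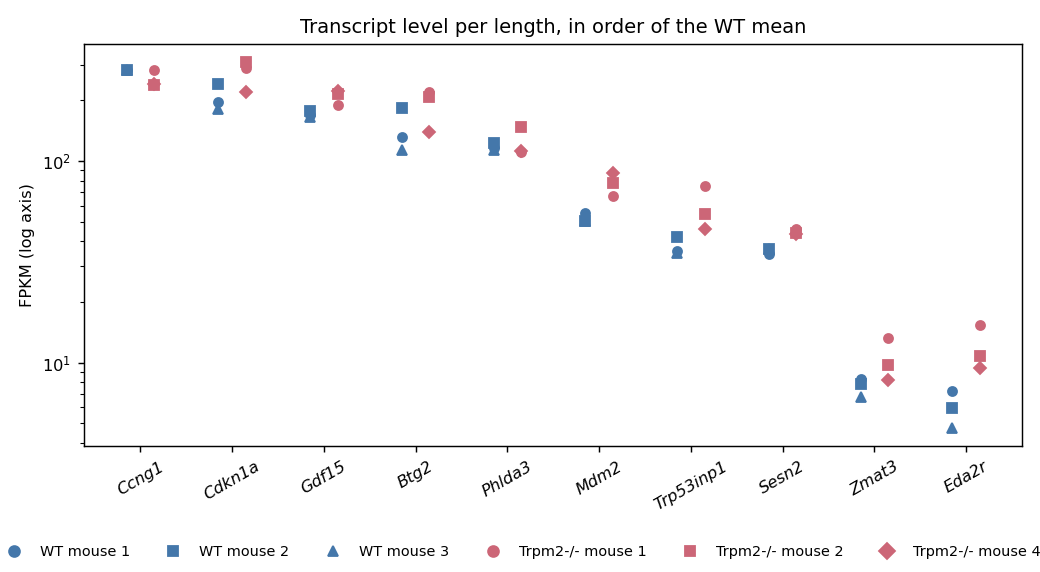
Deposited FPKM of the 10 genes in each kidney on a log axis, in order of the WT mean, with WT mice in blue and Trpm2-/- mice in red. Ccng1 and Cdkn1a lie near the top in both genotypes, between 182 and 309 FPKM, and Zmat3 and Eda2r between 4.73 and 15.3 FPKM.

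The rest of the p53 response was read from a list of 65 other p53 targets. Of the 63 that were tested, 11 (17.5%) rose and 2 (3.17%) fell, beside 4.74% higher and 7.28% lower among all genes tested. The median log2 fold change was 0.21, and 0.02 for all genes tested. Dusp5, a phosphatase of ERK kinases, had 53.4, 49.6 and 43.7 CPM in WT and 87.6, 94.6 and 86.6 CPM in Trpm2-/- mice (log2 fold change 0.87, edgeR adjusted p = 0.00394). Epha2, an ephrin receptor kinase, was at 91.3, 83.9 and 62.7 CPM in WT and 175, 186 and 135 CPM in Trpm2-/- mice (1.06, adjusted p = 0.00665 by the same edgeR test). For both genes the genotypes did not overlap, and both calls held when any mouse was left out.

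Other genes that rose were Tnfrsf10b, a receptor of the death ligand TRAIL (log2 fold change 0.74, edgeR adjusted p = 0.00578), Apaf1, the scaffold of the apoptosome (0.81, 0.0120), and Polk, a DNA polymerase that copies past lesions (0.67, 0.0133). Rap2b, a small GTPase, rose by 0.70 on the log2 scale (edgeR adjusted p = 0.0107), and Slc19a2, a thiamine transporter, by 0.67 (0.0168). Dcxr, a carbonyl and xylulose reductase that tubules express strongly, fell by 0.92 on the log2 scale (edgeR adjusted p = 0.0176). Other genes called, named after their values were seen, included Zfp365, Dyrk3 and the arrest gene Rprm, which were higher, and Dglucy, which was lower. Calls of these genes were not followed one by one in the alternative settings. Without WT mouse 2 or WT mouse 3 the list had 3 and 4 genes called in place of 13, and with the replicate block 6. Of the genes named above by p, Apaf1, Polk, Slc19a2 and Dcxr no longer passed without either of these WT mice (adjusted p 0.0564 to 0.0984 by edgeR) and Rap2b without WT mouse 2 (0.0640), and Dcxr was also lost without Trpm2-/- mouse 1 (0.0542). Polk and Rps27l were the genes of this list with a full p53 site in the 250 bases before the start, and Rps27l did not differ (log2 fold change -0.29, edgeR adjusted p = 0.330).

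**Figure D5:**
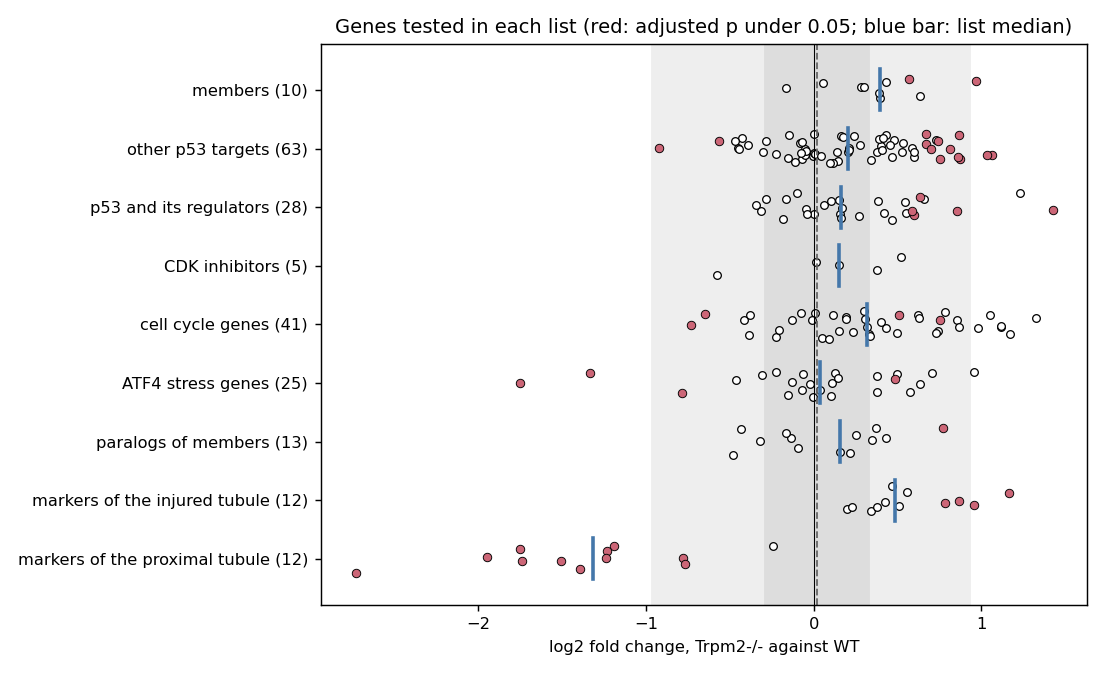
Log2 fold change in Trpm2-/- against WT kidneys of every gene tested in each list (number in brackets), red where edgeR's adjusted p was under 0.05, with the list median as a blue bar; the grey bands hold the middle 50% and 90% of all genes tested and the dashed line is their median. The median of the 10 p53 targets is 0.39, that of the other p53 targets 0.21 and that of the proximal tubule markers -1.32.

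Upstream of the members, 28 genes of p53 and its regulators were tested, and 5 rose (17.9%) and 0 fell. Among all genes tested 4.74% were higher and 7.28% lower. Beside Mdm4 the genes that rose were Ep300, the acetyltransferase p300 that acts as a coactivator of p53 (log2 fold change 0.86, edgeR adjusted p = 0.0107), and Ppp1r13l, which encodes an inhibitor of p53 (0.59, 0.0251). Atr, the kinase of the replication stress response, rose by 0.60 on the log2 scale (edgeR adjusted p = 0.0419). Hipk2, a kinase that phosphorylates p53, had 12.2, 7.58 and 8.47 CPM in WT and 44.3, 17.8 and 13.8 CPM in Trpm2-/- mice, where mouse 1 stood far above the rest (log2 fold change 1.42, edgeR adjusted p = 0.0497). Without that mouse the log2 fold change was 0.74 and the adjusted p 0.117, and the call was also lost with DESeq2 size factors (0.0512), limma-voom (0.0924), FPKM values in limma with a pseudocount of 1 (0.132) or 0.1 (0.107), and without the mitochondrial genome (0.0506). At an unadjusted p under 0.05 the list had 11 of 28 genes, where 28.3% of all genes tested passed in either direction. The count of 5 was 3 without WT mouse 1, 0 without WT mouse 2 or WT mouse 3, and 2 without Trpm2-/- mouse 1. It was 2 with the replicate block. Ep300 no longer passed without WT mouse 2 or 3 (adjusted p = 0.0640 and 0.0513 by edgeR), and Ppp1r13l, Atr and Hipk2 without any 1 WT mouse or without Trpm2-/- mouse 1 (0.0585 to 0.191). Ppp1r13l was also lost without Trpm2-/- mouse 2 (0.0508) and Atr without mouse 4 (0.0521). The genes called thus included both inhibitors and activators of p53.

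Among 41 genes of the cell cycle, the process that p21 and BTG2 restrain, 2 rose and 2 fell (4.88% each). These shares were near the 4.74% higher and 7.28% lower among all genes tested. The median log2 fold change was 0.32, and 0.02 for all genes tested, with 31 genes of the list above 0 and 10 below. A log2 fold change above 1 with an unadjusted edgeR p under 0.05 was reached by 4 of the 41, beside 3.5% of all genes tested. In the downward direction 0 of the 41 passed this threshold. Cdk6, the kinase of early G1, rose from 68.3, 61.8 and 53.3 CPM to 109, 114 and 85.7 CPM (log2 fold change 0.75, edgeR adjusted p = 0.0150), and Cdk2 rose by 0.51 (0.0454). Ccnd3, which encodes cyclin D3, fell by 0.73 on the log2 scale (edgeR adjusted p = 0.0196). Tyms, the thymidylate synthase, fell by 0.65 (0.0271 by the same edgeR test), and Rrm2, a subunit of ribonucleotide reductase, had a log2 fold change of 0.63 (0.0602). In this list 0 genes were called without WT mouse 2 or WT mouse 3, 2 without Trpm2-/- mouse 1 and 2 with the replicate block. Ccnd3 was lost also without WT mouse 1 (adjusted p = 0.0506 by edgeR) and Trpm2-/- mouse 1 (0.0571), Tyms without Trpm2-/- mouse 4 (0.0521), and Cdk2 without any 1 of the 6 mice (0.0516 to 0.178). Of 5 other inhibitors of cyclin-dependent kinases tested, 0 were called by edgeR, with 1 at an unadjusted p under 0.05. This was Cdkn2d, with a log2 fold change of -0.58 (adjusted p = 0.111), while Cdkn1c (0.52), Cdkn2b (0.38), Cdkn2c (0.15) and Cdkn1b (0.02, and below 0 in 4 alternative settings) were the others. These values moved with single mice. The log2 fold change of Cdkn1c was 0.08 without Trpm2-/- mouse 4, that of Cdkn2b was 0.92 without WT mouse 1, 0.01 without WT mouse 2 and 0.23 without Trpm2-/- mouse 2, and that of Cdkn2c lay between 0.05 without WT mouse 1 and 0.29 without WT mouse 2.

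The ATF4 stress genes, which share Gdf15 and Sesn2 as known targets, had 25 genes tested, of which 1 rose (4.00%) and 3 fell (12.0%), beside 4.74% higher and 7.28% lower among all genes, and the median log2 fold change was 0.04. Cth, which makes cysteine from cystathionine, had 197, 213 and 256 CPM in WT and 61.6, 66.0 and 70.7 CPM in Trpm2-/- mice (log2 fold change -1.75, edgeR adjusted p = 0.00126). Shmt2, the mitochondrial serine hydroxymethyltransferase, fell by 1.33 on the log2 scale (edgeR adjusted p = 0.00126) and Herpud1, of endoplasmic reticulum protein degradation, by 0.79 (0.0175). Atf3, a transcription factor induced by many stresses and also by p53, rose with a log2 fold change of 0.49 (edgeR adjusted p = 0.0477). Ppp1r15a, whose product restores translation after stress, had a log2 fold change of 0.50 (edgeR adjusted p = 0.0552). The count of 4 was 2 without WT mouse 2 or WT mouse 3, 2 with the replicate block and 7 without Trpm2-/- mouse 4, then with 4 higher and 3 lower. With no filter on low counts it was 3 higher and 3 lower. Herpud1 no longer passed without WT mouse 2 or 3 (edgeR adjusted p = 0.0803 and 0.0917), and Atf3 without any 1 mouse other than Trpm2-/- mouse 4 (0.0853 to 0.153).

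Paralogs of the members gave 1 call among 13 tested (7.69% higher, beside 4.74% of all genes tested), which was Phlda1, a PH-domain relative of Phlda3. It had 23.7, 20.1 and 18.8 CPM in WT and 26.1, 36.5 and 44.3 CPM in Trpm2-/- mice, a log2 fold change of 0.77 (edgeR adjusted p = 0.0363) that no longer passed without any of the 3 WT mice or without Trpm2-/- mouse 2 or 4 (0.0534 to 0.153). Zmat2 (-0.43) and Zmat5 (-0.48) had negative log2 fold changes, and Ccng2 (0.34) and Btg1 (0.37) positive ones (0.21 and 0.19 without Trpm2-/- mouse 1), with no call by edgeR's adjusted p. The relatives of Zmat3 and Ccng1 named here thus had values of the other sign, but none of these genes was called. Of the 13 paralogs tested, 7 had a log2 fold change above 0 and 6 below.

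Markers of cell types that a kidney holds were read beside these results. Among all genes tested 4.74% were higher and 7.28% lower. Of 10 macrophage markers, 2 were lower, C1qa (log2 fold change -2.03, edgeR adjusted p = 0.0401) and C1qc (-1.88, 0.0421), with overlap between the genotypes in both. Of the 10, 4 had a log2 fold change above 0, among them Cd14 at 0.82 (edgeR adjusted p = 0.0718), which passed with the DESeq2 Wald test (0.0188), with no filter, with the replicate block (0.0317) and without Trpm2-/- mouse 4 (0.0149) and was at 0.49 without mouse 1. The summed level was 155 to 197 CPM in WT and 163 to 248 CPM in Trpm2-/- mice. Both C1q calls were lost without WT mouse 2 or 3 or without Trpm2-/- mouse 1 or 2 (adjusted p 0.0668 to 0.166), and that of C1qa also without Trpm2-/- mouse 4 (0.0787). Of the markers tested for loop of Henle and distal tubule 1 of 6 was lower, for collecting duct 2 of 7 were lower, for fibroblasts 1 of 6 was higher, and for urothelium 1 of 4 was higher and 1 lower. The urothelial marker that was higher is Krt20, which is also counted among the injured tubule genes. Of the 5 podocyte, 6 endothelial, 5 neutrophil and 1 lymphocyte markers tested, 0 were called by edgeR. Of these, 3, 0, 1 and 0 had an unadjusted p under 0.05, as 28.3% of all genes tested had. Among the injured tubule genes, Timp1 (log2 fold change 0.87, edgeR adjusted p = 0.00683), Sox9 (1.16, 0.0115) and Krt20 (0.79, 0.0189) had the smallest p-values, and Cd44 (0.95, 0.0332) was the other one called, named after its values were seen. The call of Cd44 was not followed in the alternative settings. Sox9 no longer passed without WT mouse 3 (edgeR adjusted p = 0.0578), nor Krt20 without WT mouse 2 or 3 (0.0622 and 0.115) or Trpm2-/- mouse 1 (0.0518).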

How the data were processed

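Per the methods, kidney RNA was isolated with Trizol, made into libraries with the NEBNext Ultra II kit and sequenced at Novogene on an Illumina HiSeq. The count values deposited by the authors are whole reads per gene without normalization, and the FPKM values are those counts divided by the authors by gene length and library total. The submitters' processing notes name HISAT2, StringTie and mm9, but 98.3% of the genes shared with GENCODE M21 have its GRCm38 start and end, all 10 members included, so that GRCm38 is used here. The counting tool and its strand setting are not given in the sources used here. Both tables have 1 column per mouse and 0 other columns of values. The methods give the mice an older age than the labels.

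Counts were tested in R 4.3.3 with edgeR 4.0.16 (filterByExpr, TMM, two-sided quasi-likelihood test on genotype, Benjamini-Hochberg over 15816 genes, common dispersion 0.0445). Log2 fold changes and intervals come from this fit, with the SE as the fold change over the square root of F. The 3 mice of a genotype are separate animals. The p-values rest only on the spread between these mice, and the fit draws each gene's spread towards that of all genes tested. Replicates differed by more than sampling noise (chi-square per degree of freedom 14.5 to 20.2 in WT, 35.3 to 40.9 in Trpm2-/- mice). The methods do not say whether their p was adjusted, and here it was taken as unadjusted.

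The 17 alternatives used DESeq2 1.42.0, limma 3.58.1 (voom, and log2 of FPKM plus 1 or 0.1), other normalizations and filters, no mitochondrial genome, a test against a fold change of 1.5, the replicate number as a block, and each mouse left out. The members and lists were chosen with earlier results of these data known. Named genes are the members, Trp53, Mdm4 and from each list up to 5 genes of smallest p, or up to 8 where more were called, apart from marker lists, where the injured tubule and macrophage lists give up to 3. One gene called in a list is not reported by name here. Gene lists came from general knowledge, and one of 2 rows named Ddit3, the larger, was kept. In simulated counts with 200 genes altered 4-fold, larger than any member's, the tests recovered most of them, which does not show their power for smaller changes. Of 75-base windows of Cdkn1a transcripts 7.05% also occur in transcripts of other genes, which makes part of its count uncertain, against 0.535% for Mdm2, 0.13% for Zmat3 and 0 for the rest. Overlapping genes took few reads (295 counts on the other strand of Cdkn1a, 61 at Sesn2). Promoters are from RefSeq.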

Additional observations from a re-analysis of the deposited data

How the results depend on the processing

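Across 17 alternatives the 10 members kept their direction and their side of the threshold in 155 of 170 results. Trp53inp1 came to pass in 4, Mdm2 ceased to pass in 7 and Eda2r in 3, and Phlda3 changed sign to -0.10 without Trpm2-/- mouse 2 and reached 0.13 without mouse 4. Cdkn1b also changed sign, to -0.066 with the replicate block, and ranged from -0.061 to 0.11 when each mouse was left out. The other named genes stayed the same in 535 results, lost the call in 128 and gained it in 13. The cause of these shifts was not tested.

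Without the filter on low counts, 2954 genes were called in place of 1902, and 8 regulators of p53 in place of 5. With limma on log2(FPKM + 1) and on log2(FPKM + 0.1), 2 cell cycle genes were called in place of 4, and 3 regulators. Against a fold change of 1.5, 311 genes were called, with 0 members, 0 other p53 targets, 0 cell cycle genes, 0 regulators and 2 ATF4 stress genes. Numbers 1 and 2 occur in both genotypes but mark different mice (correlations of deviations 0.12 and 0.01). WT mouse 3 and Trpm2-/- mouse 4 have no partner, so they add nothing to the fold changes of the replicate block. The fit with this block called 1002 genes, 1 member (Eda2r), 6 other p53 targets, 2 cell cycle genes, 2 ATF4 stress genes and 2 regulators.

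Leaving out each mouse in turn gave 630 (without WT mouse 3) to 2059 genes called, with 697 without WT mouse 2 and 1269 without Trpm2-/- mouse 1. The range was 0 to 2 for the members, 3 to 15 for other p53 targets, 0 to 4 for cell cycle genes, 2 to 7 for ATF4 stress genes and 0 to 6 for regulators. Without WT mouse 2 or WT mouse 3 no member was called, and without WT mouse 1 or Trpm2-/- mouse 2 it was Eda2r alone. With upper-quartile normalization, with no filter and with the DESeq2 Wald test 3 members were called, and with upper-quartile normalization all genes split into 921 higher and 1055 lower in place of 750 and 1152.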

Other observations

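The p53 targets of the BCL2 family, which open the mitochondrial path of apoptosis, were not among the lists above, and their values were looked at after the other results were seen. Of 5 tested, 1 rose (20%), beside 4.74% of all genes tested. Pmaip1, which encodes the BH3-only protein NOXA, had 83.2, 85.5 and 57.3 CPM in WT and 136, 134 and 113 CPM in Trpm2-/- mice, all above the WT mice, with a log2 fold change of 0.76 (SE 0.172, adjusted p = 0.0214 by edgeR's quasi-likelihood test). Whether this call holds in the alternative settings or without single mice was not examined. Bbc3, which encodes PUMA, another BH3-only protein, had 28.9, 36.0 and 41.9 CPM in WT and 31.5, 41.9 and 22.9 CPM in Trpm2-/- mice, with overlap and a log2 fold change of -0.15 (edgeR adjusted p = 0.709). Bax, the pore-forming effector, was at 125, 134 and 131 CPM in WT and 119, 226 and 145 CPM in Trpm2-/- mice, where mouse 2 stood above all others, as it did for Phlda3 (log2 fold change 0.33, edgeR adjusted p = 0.355). Bid, with a log2 fold change of -0.35 (edgeR adjusted p = 0.103), and Bik, with 0.19 (0.646), were the others.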
